A study of Gallus gallus with 300 samples.

Results

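Hair cells of the chicken utricle with and without transcripts of ATOH1 were compared, among hair cells that hold little of the calcium buffer oncomodulin (OCM). The members were chosen on measured values. A cell was kept with a total of at least 50000 counts and at least 2500 genes at 1 count or more, and it was a hair cell when the mean log2(CPM + 1) of OTOF, CHRNA10, TMPRSS3, LRTOMT and CLIC5 was above that of the supporting cell genes GJB6, GJB2, SLC1A3, OTOGL and JAG1. CPM are counts per 1000000 counts of the cell. Of 300 cells, 140 hair cells and 24 supporting cells passed the filter, and 92 of the hair cells had OCM under 10000 CPM. ATOH1 was at 10 CPM or more in 42 of the 92 (ATOH1-positive), at 0 counts in 41 (ATOH1-negative), and between these bounds in 9, which were left out of the comparison. The 83 members were thus split by ATOH1 itself, so its own difference is a description of the rule.

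The study profiled single cells of the utricle sensory epithelium, a balance organ of the inner ear, from wild-type chickens at posthatch day 7. Epithelia of several animals were pooled for each experiment, viable cells were sorted singly into the wells of 5 plates, numbered 2 to 6, and full-length libraries were made without molecular identifiers. All cells share this genotype, age and tissue, and no agent was given. The labels tie no cell to an animal, so each side of the comparison counts as 1 sample, no test between the sides was possible and no p-value is given. Values of the 2 sides are mean CPM over cells within a plate, then the mean ± SD over the plate means (n = 5 plates), and this SD is not a spread between animals. Where plate means of the 2 sides are said not to overlap, this describes the gene named. How many of all genes share this was not computed. Means of supporting cells and of hair cells with OCM at 10000 CPM or more were taken over all cells, without the plate step.

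ATOH1 is a basic helix-loop-helix transcription factor that is needed for hair cells to form and is best known for its transient expression in young hair cells. In birds, supporting cells of the utricle go on making hair cells after hatching, so young and mature hair cells lie side by side. Notch ligands on a new hair cell hold back ATOH1 in its neighbours. HES6 and NHLH1 are transcription factors of early hair cell and neuronal differentiation, and HVCN1 is a voltage-gated proton channel.

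ATOH1 transcripts were common in hair cells with little OCM. The positive share was 45.7% (exact binomial 95% interval 35.2 to 56.4%), and it was 40, 47.4, 53.3, 30.4 and 66.7% on plates 2 to 6. Hair cells with OCM at 10000 CPM or more reached 10 CPM of ATOH1 in 4 of 48 cells (8.33%, 2.32 to 19.98%), and supporting cells, which should hold little ATOH1, in 4 of 24 (16.7%, 4.74 to 37.4%). The median totals of these cells were 423500 and 456572 counts, against 471624 in the low-OCM hair cells. The intervals cover counting error in the number of cells only.

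In the positive cells ATOH1 ran from 11.2 to 189.3 CPM with a median of 41.3, and the cell with the fewest ATOH1 counts had 5. Plate means were 42.5, 49.5, 56.4, 66.9 and 57.1 CPM, and every plate gave both positive and negative cells, with 8, 9, 8, 7 and 10 positive and 10, 9, 6, 13 and 3 negative ones. Plate 6 therefore rests on only 3 negative cells. The positive cells nearest the ATOH1 bound had 11.2 and 12.4 CPM, and the nearest cells below it 8.88 and 8.01. At the OCM bound the values just inside were 9425 and 9020 CPM and those just outside 10231 and 10306.

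Depth was alike on both sides. Median totals were 469337 and 471416 counts and median gene numbers 3847.5 and 3770, or 3196 and 3175 after each cell was thinned to 50000 counts. HINTW, a gene of the female-specific W chromosome, reached 10 CPM in 33 of 42 positive and 31 of 41 negative cells, which are like shares. A cell under this bound may hold the transcript below detection, so no sex was assigned to single cells. The supporting cell gene mean came within 3 log2 units of the hair cell gene mean in 4 positive cells and 1 negative cell.

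The hair cell label was checked on genes that the rule did not use. GFI1, a repressor needed for hair cell survival, reached 10 CPM in 41 cells of each side and in 1 of 24 supporting cells, and RBM24, an RNA-binding protein of hair cells, in 42 and 41 cells and in 2 supporting cells. One positive cell, on plate 6, stood apart. It had the highest ATOH1, 189.3 CPM, and a hair cell gene mean of only 2.72 log2 units against 6.55 or more in the other positive cells, with GFI1 at 0 but RBM24 at 1664 CPM and MYO6 at 4298 CPM. With HES6 at 1415, DUSP4 at 1122, EPCAM at 1891, ACTB at 9881 and HVCN1 at 489.7 CPM it adds much to the plate 6 means of these genes. It is among the 4 positive cells whose supporting and hair cell gene means lay within 3 log2 units, but its supporting cell gene mean was only 0.85. Without those 4 and the 1 negative cell the log2 ratio of HVCN1 was 8.96 (8.83 with them) and that of NHLH1 4.02 in both cases. That of DUSP4 was 6.68 (6.86) and that of EPCAM 2.64 (2.88). HVCN1, NHLH1, DUSP4 and EPCAM were still called, but ACTB was not.

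Levels of the rule genes themselves are set in part by the choice of cells. OTOF, which drives exocytosis at the hair cell synapse, was at 4533 ± 190 CPM in positive and 5852 ± 770 CPM in negative cells, and at 136.5 CPM in supporting cells. Among the genes of the rule, CHRNA10, a subunit of the efferent nicotinic receptor, was the least even. Its plate means were 441, 570, 541, 668 and 293.7 CPM in positive cells and 4.56, 10.2, 150.1, 13.4 and 47.2 CPM in negative ones. The groups of plate means did not overlap, and CHRNA10 reached 10 CPM in 28 of 42 and 6 of 41 cells. CLIC5, a protein of the stereocilia base, went the other way, with 551 ± 334 against 1173 ± 433 CPM, and 26 positive against 40 negative cells reached 10 CPM.

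Besides ATOH1 itself, HVCN1, NHLH1 and HES6 were put forward as markers of the ATOH1-positive state. They were named with earlier results of these same data known, so their values here describe that choice and are no independent check. HVCN1 and NHLH1 were called higher in positive cells by the rule of size given further on, and HES6, which was found in few cells, was not. HVCN1 was at 457, 678, 383, 806 and 133.4 CPM in the positive cells of plates 2 to 6. In negative cells it was at 0 on 4 plates and at 0.412 CPM on plate 5, with 3 counts in all 41 cells together. It reached 10 CPM in 16 of 42 positive and 0 of 41 negative cells, a count of 0 that allows a share of up to 7.32%. The 16 cells held 26.4 to 3942 CPM with a median of 1279, and the other positive cells were under 10 CPM. HVCN1 was not confined to these cells, since 9 of 48 high-OCM hair cells (mean 259.5 CPM) and 6 of 24 supporting cells (mean 27.7 CPM) also reached 10 CPM.

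NHLH1 was at 215.4, 314.4, 205.995, 181.8 and 73.1 CPM in positive cells and at 34.1, 6.43, 0, 15.9 and 0 CPM in negative cells. The highest negative plate mean lay below the lowest positive one. NHLH1 reached 10 CPM in 22 of 42 positive and 4 of 41 negative cells, and its log2 ratio was 4.02. In high-OCM hair cells it averaged 33.4 CPM, with 5 of 48 cells at 10 CPM.

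HES6 was found in 4 positive cells and 1 negative cell. Its plate means were 38.7, 0, 22.4, 0 and 141.5 CPM against 14.2, 0, 0, 0 and 0, so that 3 plates were higher and none lower. The plate 6 mean comes from the 1 positive cell that stood apart. HES6 was not called, and at this detection rate a difference could not be read from it.

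**Figure D1:**
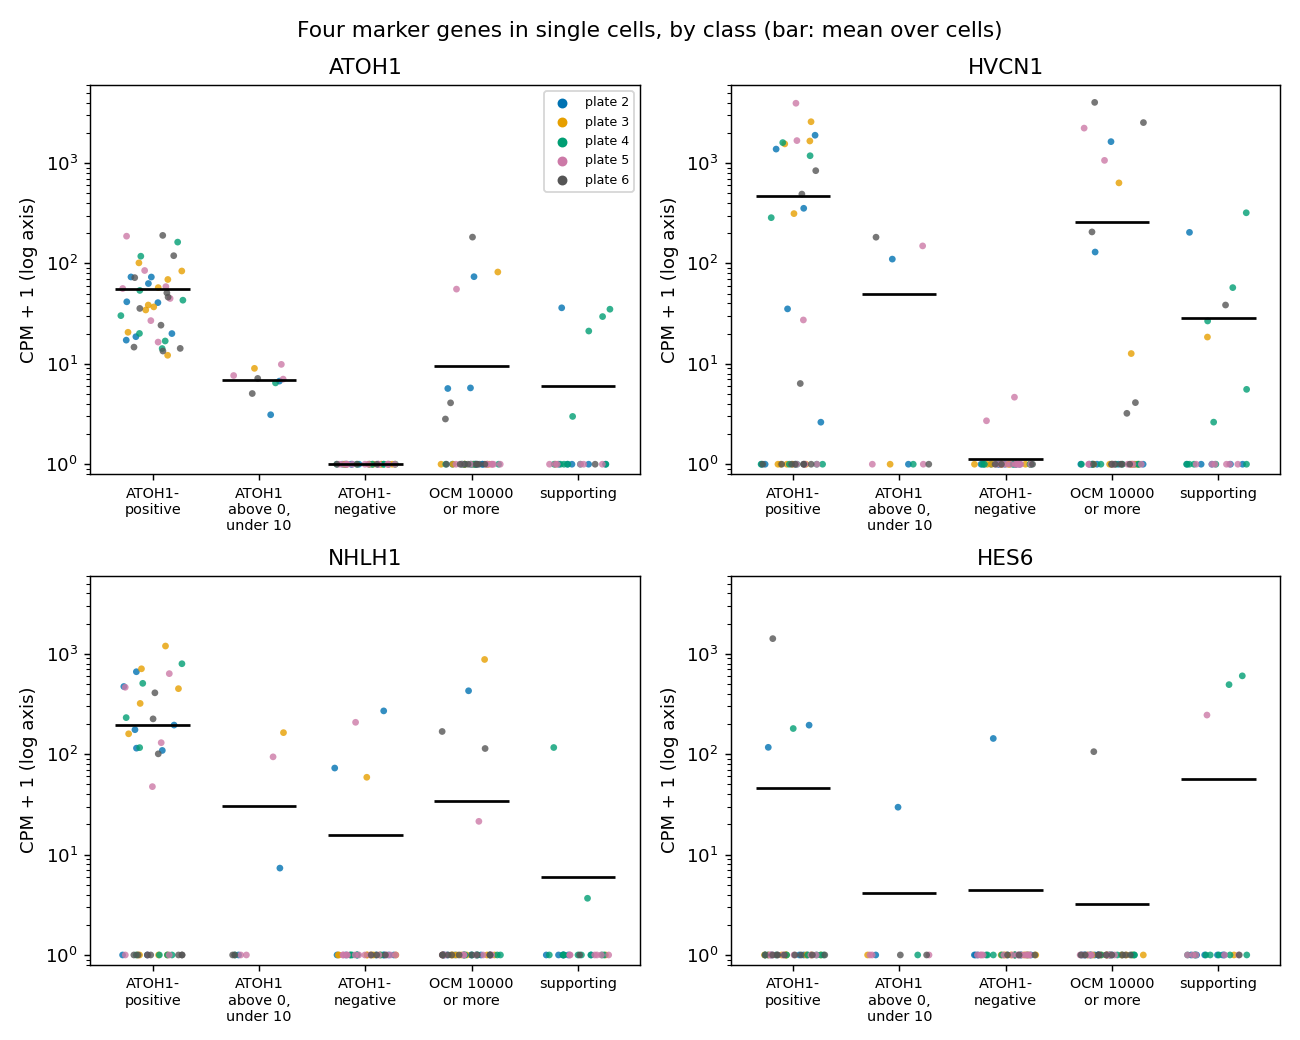
Each point is 1 cell and shows ATOH1, HVCN1, NHLH1 or HES6 as CPM + 1 on a log axis, by cell class and coloured by plate, with a bar at the mean over cells. HVCN1 and NHLH1 were at 10 CPM or more in 16 and 22 of the 42 ATOH1-positive cells and in 0 and 4 of the 41 ATOH1-negative cells, and HES6 appeared in few cells of any class.

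The positive cells were not uniform, and the companion genes were found in overlapping sets of cells. Of the 16 positive cells with HVCN1, 14 also had NHLH1 at 10 CPM or more, 11 had DUSP4 and all 16 had EPCAM. The 4 cells with HES6 had HVCN1, NHLH1, DUSP4 and EPCAM as well. All of HVCN1, NHLH1 and DUSP4 were at 10 CPM or more in 11 positive cells, and none of them in 15. In negative cells these numbers were 0 and 37.

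Detection also differed by ATOH1 level within the positive cells. Of the 17 cells with ATOH1 at 50 CPM or more, 12 had HVCN1 and 13 NHLH1, and of the 25 cells between 10 and 50 CPM, 4 had HVCN1 and 9 NHLH1. All 4 cells with HES6 were among the 17. EPCAM was in 15 of 17 and 16 of 25, and DUSP4 in 9 of 17 and 8 of 25. These counts describe single cells that share plates and animals, and they were not tested.

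**Figure D2:**
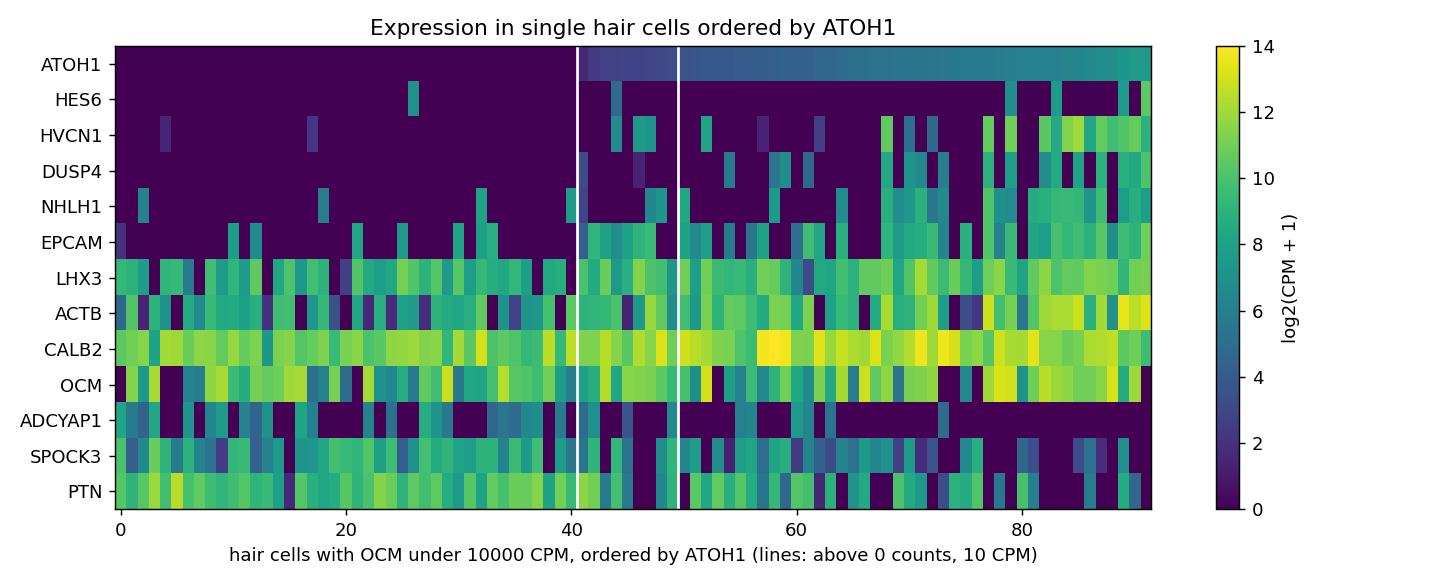
The 92 hair cells with OCM under 10000 CPM are ordered from left to right by ATOH1, with lines where ATOH1 passes 0 counts and 10 CPM, and the colour gives log2(CPM + 1) of each gene. HVCN1, DUSP4 and NHLH1 lie mostly to the right, where they were found in 12, 9 and 13 of the 17 cells with ATOH1 at 50 CPM or more, while LHX3 and CALB2 were found across the order.

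Across all genes, 8733 were measured, that is, no fewer than 5 of the 83 cells held them at 10 CPM or more, and the 12 genes of the rule were set aside. A gene was called when its log2 ratio, with 1 CPM added to each side, was at least 1 in size, when it went the same way on all 5 plates, and when no fewer than 30% of cells on its higher side held it at 10 CPM. By this rule 314 genes were called, 3.6% of those measured. Of these, 199 were higher in ATOH1-positive cells, 2.28% of all genes measured, and the others were lower, 1.32%. The call is a rule of size and not a test, it sets no error rate, and the counts of members below stand beside these shares. Gene lists were chosen with earlier results of these data known, so a larger share on a list is a description only. The median log2 ratio of all measured genes was 0.04. Called or not, 6.01% of the measured genes were higher in positive cells on all 5 plates and 3.85% were lower on all 5. Plate means without overlap are a stricter trait, which a call makes more likely, and its share over all genes was not computed.

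Besides HVCN1, the genes with the largest ratios were DUSP4, which encodes a phosphatase of MAP kinases, and DNASE1, a secreted nuclease. DUSP4 was at 115.2 ± 19.7 CPM in positive cells, between 90.03 and 133.7 CPM on every plate, and at 0 counts in all 41 negative cells. The plate 6 mean came mostly from the cell that stood apart, at 1122 CPM. The other positive cells of plate 6 held 0 to 65.9 CPM. DUSP4 reached 10 CPM in 17 of 42 positive cells (40.5%), and its absence from 41 negative cells allows a share of up to 7.32%. It was at 0 in the 24 supporting cells and at 11.5 CPM in high-OCM hair cells. DNASE1 was at 63.4 ± 36.7 CPM, with 14 of 42 cells at 10 CPM, and at 0 counts in negative cells, but at 63.1 CPM in high-OCM hair cells. DNASE1 was not called with ATOH1 taken from 50 CPM, nor with any ATOH1 count as positive.

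Others at the top of the order act in signalling or at the membrane. KSR1, a scaffold of the Ras-MAP kinase cascade, had 74.5 ± 38.5 against 1.37 ± 2.76 CPM. MAP2K5, a kinase upstream of ERK5, had 158.3 ± 105.3 against 5.61 ± 7.28 CPM, and DUSP10, another MAP kinase phosphatase, 30.6 ± 16.4 against 0.444 ± 0.865 CPM. These 3 were not a list of their own, and no share of MAP kinase genes was computed. DUSP10 lost its call in 6 of 20 other processing settings, among them without plate 3 and without plate 4. KSR1 and MAP2K5 lost theirs with no bound on OCM. FXYD6, a regulator of the sodium pump, had 145.6 ± 166.4 against 1.77 ± 3.96 CPM. TTYH2, a tweety family membrane protein, had 87.3 ± 46.3 against 2.64 ± 4.73 CPM.

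ASS1, argininosuccinate synthase, was among the more abundant genes of this group. Its plate means were 391, 511, 353, 535 and 174.3 CPM in positive cells and 0, 0, 46.5, 14.5 and 0 CPM in negative ones, without overlap. It reached 10 CPM in 23 of 42 and 3 of 41 cells, and was at 331.7 CPM in high-OCM hair cells and 0 in supporting cells. TGIF1, a homeodomain repressor that limits TGF-beta signals, had 99.2 ± 72.5 against 2.51 ± 4.65 CPM, and the cartilage collagen gene COL9A1 60.4 ± 52.8 against 2.76 ± 5.86 CPM. C15orf61 (452 ± 203.3 against 28.1 ± 43.4 CPM), C2orf88 (92.5 ± 37.6 against 2.30 ± 5.02 CPM) and LOC107053413 (24.6 ± 12.7 CPM against 0 counts) completed the first 15 together with HVCN1 and NHLH1. C2orf88 was not called without plate 2, COL9A1 not without plate 3, and TGIF1 not without the highest cell on each side of each plate. In this order, these calls were lost in 2, 3 and 4 of 20 other settings. C15orf61 was as high in high-OCM hair cells, at 587 CPM.

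**Figure D3:**
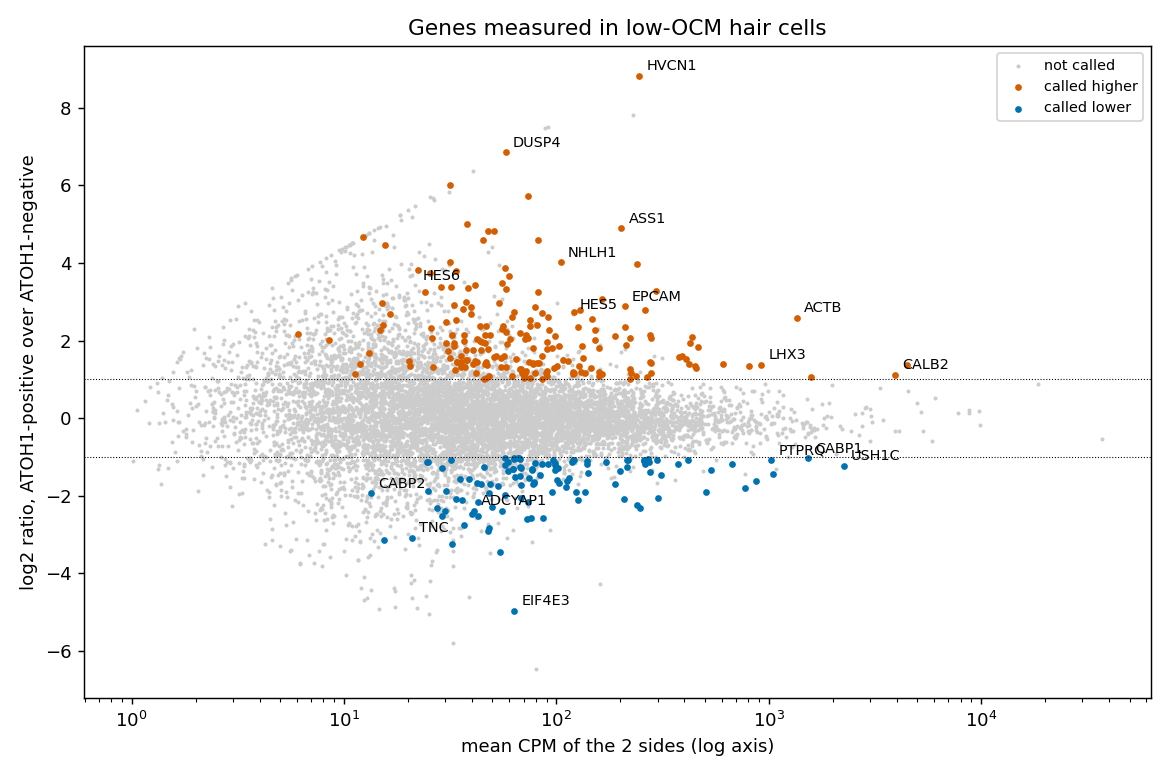
Each point is 1 of the 8733 genes measured, placed by its mean CPM over both sides on a log axis and its log2 ratio of ATOH1-positive over ATOH1-negative cells, with dotted lines at ratios of 1 and -1. The 314 genes called, 199 of them higher, are coloured, and uncalled genes of low mean level reach ratios as large as theirs.

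The genes whose pattern was most like that of ATOH1 were ranked by Spearman's rho with ATOH1 over the 92 low-OCM hair cells, after subtraction of each plate's mean rank. LOC107053413 had a rho of 0.65, TSPAN5, a tetraspanin that regulates the protease ADAM10, 0.64, NHLH1 0.62 and KSR1 0.61. GSTA4L and C15orf61 each had a rho of 0.60, and EPCAM and TTYH2 0.59. HVCN1 was the 10th with 0.59, DUSP4 the 14th with 0.57 and HES6 the 531st with 0.25. Cells share plates and animals, and zeros of ATOH1 make up much of the order, so these values are descriptions. TSPAN5 differed in level more than in detection. It was at 708 ± 293.2 CPM in positive and 166.2 ± 121.9 CPM in negative cells, and reached 10 CPM in 38 of 42 and 30 of 41 cells.

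Among 29 measured factors of early hair cell differentiation, 3 were called higher and none lower, and the median log2 ratio was 0.45. LHX3, a LIM homeodomain factor of hair cells, was the most abundant of the 3. Its plate means were 1313, 1387, 1434, 1348 and 1180 CPM in positive cells and 414, 214.9, 546, 744 and 641 CPM in negative ones. The groups did not overlap, a trait whose share over all genes was not computed. Most cells of both sides held LHX3 (41 of 42 and 34 of 41 at 10 CPM), and the log2 ratio was 1.38. LMO1, a LIM-only cofactor, had 85.4 ± 45.2 against 27.6 ± 25.7 CPM, and NHLH1 was the third. LMO1 lost its call in 5 of 20 other settings, among them without the highest cell on each side of each plate and after thinning to 50000 counts.

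Other factors of hair cells were not called. GFI1 was at 1686 ± 251.3 and 1901 ± 221.6 CPM (log2 ratio -0.17), with 41 cells of each side at 10 CPM. RBM24 was at 1076 ± 133.3 and 759 ± 181.4 CPM. POU4F3, which acts downstream of ATOH1 and was low in these data, had a log2 ratio of 0.42, below the fold used. It was higher on all 5 plates, as were 6.01% of all genes measured. On a list of 14 measured markers of developing hair cells, 4 were called higher and none lower, and the median was 1.36. Of all genes measured, 2.28 and 1.32% were called. All 4 are on other lists too, NHLH1 and LHX3 among the factors and STMN1 and TUBB3 among the neurite and microtubule genes below. SOX2, SOX4 and SOX11 are on the list of developing markers, and were at 10 CPM in 5, 4 and 6 positive and 3, 0 and 2 negative cells.

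On the lists of Notch ligands, receptors and modulators, and targets, no measured gene was called. The ligand genes JAG2 and DLL1 had log2 ratios of 1.33 and 1.14 and were higher on 4 of 5 plates each. DLL1 was at 46.997, 153.7, 114.96, 41.9 and 63.4 CPM in positive and 13.9, 40.9, 79.1, 53.9 and 0 CPM in negative cells, which overlap, and it reached 10 CPM in 19 of 42 and 6 of 41 cells. DLL4, also a ligand, was at 12.1 ± 14.9 and 28.04 ± 47.8 CPM. Of the 15 measured receptors and modulators, the one most abundant was DNER, a Notch-like ligand, with 687 and 506 CPM in the mean, and it was higher on 4 of 5 plates. HES5, the main Notch target of supporting cells, had 207.4 ± 203.4 against 31.4 ± 22.6 CPM, was higher on 4 plates, and was found in 10 of 42 and 6 of 41 cells. Only 3 of the 9 target genes present in the files were measured. DLK2, a Notch ligand relative that is on no list and was singled out after its values were seen, was called higher, at 724 ± 296.1 against 201.5 ± 57.6 CPM and with 38 of 42 and 24 of 41 cells at 10 CPM.

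EPCAM, an epithelial adhesion protein, was called higher. Its plate means were 342, 444, 472, 301.2 and 287.2 CPM in positive and 24.8, 50.6, 47.6, 47.1 and 76.3 CPM in negative cells. The plate means did not overlap, and 31 of 42 and 7 of 41 cells reached 10 CPM. On plate 6 much of the positive mean came from the cell that stood apart, at 1891 CPM. The other positive cells of plate 6 held 0 to 313.2 CPM, and the highest negative cell there held 229.04 CPM. Supporting cells held far more of it, 2466 CPM in the mean. Of 16 measured supporting cell markers EPCAM was the only one called, and the median of this list was 1.11. The summed level of the list ran from 467 to 20775 CPM per cell (median 2043) in positive and from 284.3 to 13101 CPM (median 1731) in negative cells. The rule gene GJB6 was at 528 ± 594 and 126.7 ± 146.1 CPM, against 24421 CPM in supporting cells. Without the cells whose supporting and hair cell means lay within 3 log2 units, EPCAM was still called. What part supporting cell transcripts have in the other values was not tested.

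ACTB, cytoplasmic beta-actin, was called higher. It was at 2133, 2473, 2745, 2888 and 1375 CPM in positive and 301, 283.6, 144.6, 435 and 763 CPM in negative cells. The plates did not overlap, but the medians over cells were 856 and 250.6 CPM. A subset of positive cells with high levels, up to 11483 CPM, thus carried much of the mean. On plate 6 the higher positive mean rests on the cell that stood apart, at 9881 CPM. The other positive cells of plate 6 held 0 to 1561 CPM, and its negative cells 393.3, 730.7 and 1166 CPM. The call was lost without the highest cell on each side of each plate. It was also lost without the cells whose supporting and hair cell means lay within 3 log2 units, and with the difference of mean log2 values. ACTB was at 7681 CPM in supporting cells. Its near-identical paralog ACTG1 was at 1249 ± 196.1 and 1314 ± 278.6 CPM, and reads of the 2 genes could be divided between them by the authors' estimation.

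Of 25 measured neurite and microtubule genes, 5 were called higher and none lower, beside 2.28 and 1.32% of all genes measured, and the median was 0.70. The list was chosen with earlier results of these data known, so this share is a description only. STMN1, which destabilises microtubules, had 585 ± 121.4 against 191.6 ± 168.7 CPM (log2 ratio 1.61). UCHL1, a neuronal ubiquitin hydrolase, had 406 ± 184.9 against 147.7 ± 104.6 CPM. MARCKS, a membrane-bound actin regulator, had 58.2 ± 18.2 against 9.16 ± 4.10 CPM (2.54), and the neuronal RNA-binding protein gene ELAVL4 59.1 ± 30.3 against 6.91 ± 14.7 CPM (2.93). TUBB3, a neuronal tubulin, was low, at 17.7 ± 4.47 and 6.07 ± 6.09 CPM. STMN1, UCHL1 and ELAVL4 lost their call without the cells whose supporting and hair cell means lay within 3 log2 units. MARCKS and TUBB3 lost theirs with ATOH1 taken from 50 CPM. The most abundant member, TUBB4B, was at 5492 ± 995 and 4953 ± 1718 CPM.

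Genes of the mechanosensory bundle went both ways. Of 19 measured mechanotransduction genes 1 was called higher and 1 lower (median 0.15, but -0.16 with no bound on OCM), and of 31 hair bundle genes 2 and 1 (median 0.20). GRXCR1, a regulator of stereocilia thickness and length, was at 140.9, 180.7, 124.7, 195.985 and 130.4 CPM in positive and 42.5, 21.7, 11.8, 71.5 and 7.37 CPM in negative cells, a log2 ratio of 2.28 without overlap. CLRN1, a gene of Usher syndrome, had 63.4 ± 13.6 against 30.2 ± 14.97 CPM. Its call was lost in 4 of 20 other settings, among them without plate 3.

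USH1C, which encodes the tip-link scaffold harmonin, was lower in positive cells. Its plate means were 1092, 1458, 1480, 1168 and 1564 CPM in positive and 2799, 2878, 4159, 2710 and 3258 CPM in negative cells, and all 83 cells reached 10 CPM, so the difference (log2 ratio -1.22) was one of level. PTPRQ, a phosphatase at the stereocilia base, had 661 ± 182.5 against 1393 ± 447 CPM. PTPRQ was not called without plate 3 or without plate 4. High-OCM hair cells had less of both, 730 and 312.3 CPM, and neither gene was called with no bound on OCM. MYO6, a motor of the bundle base, was below the fold used, at 5590 ± 1312 and 3465 ± 995 CPM. It was higher on all 5 plates, as were 6.01% of all genes measured. TMC1 of the transduction channel was at 325 ± 112.8 and 272.4 ± 94.1 CPM.

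**Figure D4:**
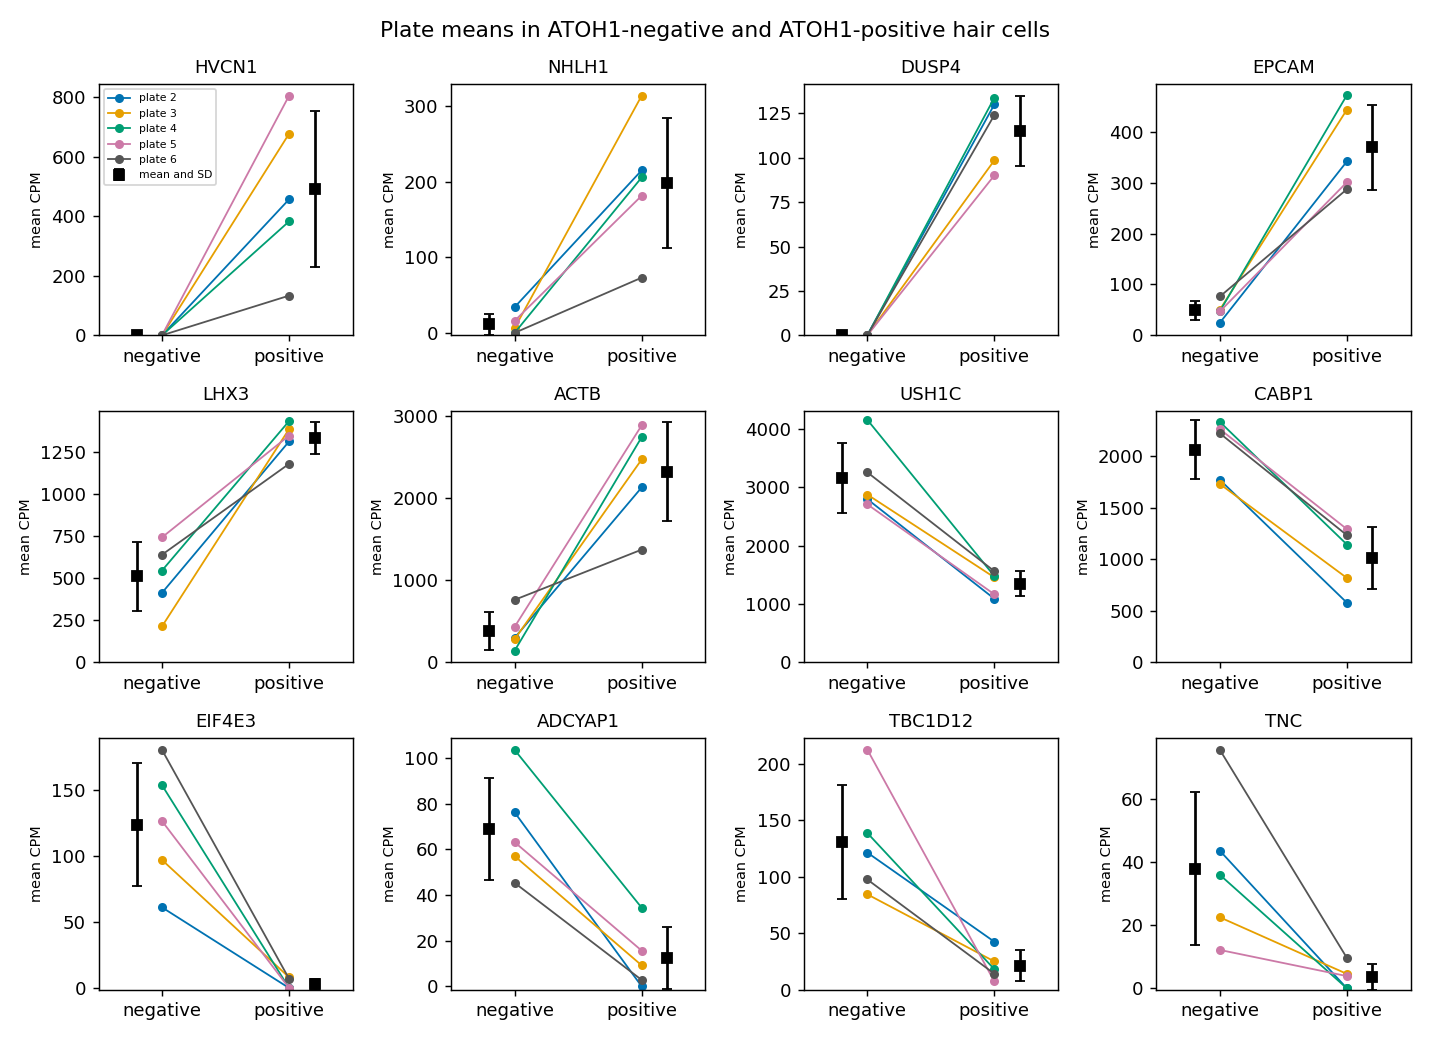
Mean CPM of 12 genes on plates 2 to 6 in ATOH1-negative and ATOH1-positive hair cells, with lines joining the 2 sides of a plate and squares with bars for the mean and SD over plates. HVCN1, NHLH1, DUSP4, EPCAM, LHX3 and ACTB were higher in positive cells on every plate, and USH1C, CABP1, EIF4E3, ADCYAP1, TBC1D12 and TNC lower. On plate 6 the positive means of DUSP4, EPCAM and ACTB rest largely on 1 cell, with 1122, 1891 and 9881 CPM.

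Calcium-handling genes split by member. CALB2, which encodes the buffer calretinin, was at 7935, 4361, 4585, 3455 and 6520 CPM in positive and 2689, 2216, 2254, 2434 and 2790 CPM in negative cells, and was found in all 83 cells (log2 ratio 1.12). It was not called without plate 2, nor with ATOH1 taken from 50 CPM, where the ratio was 0.65. The calcium-binding regulators of calcium channels CABP1 (1013 ± 304 against 2061 ± 288.2 CPM) and CABP2 (4.95 ± 2.55 against 21.7 ± 10.3 CPM) and the plasma membrane calcium pump gene ATP2B1 (164.8 ± 56.4 against 454 ± 259.2 CPM) were called lower. CABP1 had a log2 ratio of -1.02, and its call was lost in 6 of 20 other settings. Among these were the one without plate 2 and that with size factors in place of cell totals. CABP2 was not called after thinning or without the highest cell on each side of each plate, and ATP2B1 not with ATOH1 taken from 50 CPM or with no bound on OCM. That made 1 of 19 measured members called higher and 3 lower, against 2.28 and 1.32% of all genes. OCM itself, held under its bound by the rule, was at 2393 ± 482 and 1608 ± 571 CPM.

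None of 21 measured genes of the ribbon synapse and exocytosis was called, and their median was -0.68, with 14 of 21 ratios below 0. SNAP91, a clathrin adaptor protein, was at 178.4 ± 44.7 and 541 ± 471 CPM (lower on 4 plates), and SLC17A8, the vesicular glutamate transporter, at 941 ± 304 and 1279 ± 657 CPM. Among 10 measured neurotrophin and peptide genes 8 had ratios below 0 (median -0.49), and 1 was called. This was ADCYAP1, the precursor of the neuropeptide PACAP. It was at 0, 9.21, 34.4, 15.6 and 2.82 CPM in positive and 76.2, 57.1, 103.6, 63.2 and 45.3 CPM in negative cells, without overlap, and reached 10 CPM in 6 of 42 and 23 of 41 cells. It was at 3.75 CPM in high-OCM hair cells. SCG3, a secretory granule protein, was just below the fold used, at 822 ± 301 and 1632 ± 391 CPM.

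Of 20 measured channels and receptors, HVCN1 and KCNH7 were called higher and none lower. KCNH7, an ERG-type potassium channel, was at 237.998, 108.6, 158.3, 65.6 and 73.7 CPM in positive and 8.41, 81.7, 0, 17.9 and 0 CPM in negative cells. The groups overlap on these values, although each plate went the same way. CHRNA9, the partner subunit of CHRNA10, was at 122.8 ± 34.7 and 319 ± 238.7 CPM and was not called. On a list of proton pump and proton channel genes, no gene of the 16 measured was called apart from HVCN1, and the most abundant pump subunit, ATP6V1G1, was at 1461 ± 253.1 and 1654 ± 351 CPM.

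The genes with the lowest ratios were mostly sparse. EIF4E3, a cap-binding protein, was at 0, 8.09, 0, 0 and 6.97 CPM in positive and 61.1, 97.03, 153.6, 126.5 and 180.4 CPM in negative cells, and reached 10 CPM in 2 of 42 and 17 of 41 cells (log2 ratio -4.96). SERINC2, a serine incorporator family gene, had 8.26 ± 12.7 against 100.5 ± 108.5 CPM, and LMOD1, a leiomodin, 5.38 ± 4.62 against 59.1 ± 37.5 CPM. The phospholipid flippase genes ATP8A2 (10.4 ± 11.1 against 84.5 ± 42.2 CPM) and ATP11A (11.9 ± 5.16 against 73.7 ± 21.6 CPM) were both among the 15. So were TBC1D12, of a Rab regulator family (21.4 ± 13.4 against 131.045 ± 50.3 CPM), the effector caspase gene CASP6 (24.3 ± 14.6 against 148.997 ± 91.005 CPM) and the ciliary dynein gene WDR60 (16.97 ± 14.1 against 93.8 ± 65.3 CPM). SERINC2 was not called without plate 3, LMOD1 and ATP11A not without the highest cell on each side of each plate, EIF4E3 not with 1000 genes as the bound, and CASP6 not with any ATOH1 count as positive. LMOD1 lost its call in 6 of 20 other settings, SERINC2 in 3 and ATP11A in 2.

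TNC, which encodes the matrix protein tenascin C and is a marker of type I hair cells with calyx endings, was at 3.63 ± 3.99 against 38.1 ± 24.3 CPM, and at 158.7 CPM in high-OCM hair cells. The TNC call was lost in 5 of 20 other settings, among them without plate 4 and without plate 6. CADM1, a cell adhesion gene, RAP1GDS1, SMOC2, the GABA receptor subunit gene GABRD, LOC112532542 and LOC424748 completed the 15, with log2 ratios of -3.15 to -2.48. Each of these 6 calls was lost in 3 to 8 of 20 other settings, CADM1 and SMOC2 without plate 4, SMOC2 also without plate 6, and RAP1GDS1 and LOC112532542 without plate 5. Outside this group, RSPO3, a secreted enhancer of Wnt signals, was at 20.5 ± 12.6 against 68.3 ± 31.1 CPM, and it was the only one of 23 measured Wnt pathway genes called. SMAD7, an inhibitor of TGF-beta and BMP signals, was at 15.1 ± 14.2 against 34.1 ± 16.6 CPM, the only one of 18 measured FGF and BMP genes called. Its call was lost in 9 of 20 other settings, among them without plate 2 and without plate 3.

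Type I and type II hair cells differ in their nerve endings. Of 6 genes measured from the type I list, CALB2 was called higher and TNC lower (median -0.999, but 0.19 with OCM under 5000 CPM). CALB2 is also on the list of general hair cell markers and was found in every cell compared. CXCL14, a chemokine, was at 24012 ± 6857 and 12951 ± 1450 CPM, below the fold used. Of 8 type II markers none was called (median 0.19, but -0.18 with ATOH1 taken from 50 CPM), with SYT14 at 726 ± 95.1 and 664 ± 305 CPM. None of 7 striolar and 7 extrastriolar markers was called. Of 36 measured ciliary genes SPAG6 was the only one called, at 80.2 ± 43.7 and 17.2 ± 22.1 CPM, a call lost in 6 of 20 other settings, thinning among them.

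Of 20 measured cell cycle genes 3 were called higher and none lower, with a median of 0.64. MCM6, a subunit of the replicative helicase, had 44.5 ± 32.9 against 3.79 ± 8.48 CPM and reached 10 CPM in 14 of 42 and 1 of 41 cells. MCM6 lost its call in 5 of 20 other settings, among them without plate 2 and after thinning. The other two are known for growth arrest. BTG2, an antiproliferative gene, had 1161 ± 322 against 458 ± 239.2 CPM, and GADD45G 48.2 ± 24.3 against 13.7 ± 9.95 CPM. GADD45G lost its call in 5 of 20 other settings, with thinning and both other OCM bounds among them and a lowest log2 ratio of 0.86. BTG2 lost it in 1, the difference of mean log2 values. PCNA, the sliding clamp of replication, was at 72.7 ± 15.9 and 77.1 ± 34.2 CPM. Among 23 stress genes EGR1 (452 ± 223.1 against 106.6 ± 117.5 CPM) and HSPA5, a chaperone of the endoplasmic reticulum (2132 ± 858 against 1025 ± 367 CPM), were called higher. EGR1 was at 4603 CPM in supporting cells. The HSPA5 mean holds 1 cell of 21825 CPM, and its call held in 9 of 20 other settings, and not without plate 3, 5 or 6.

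Markers of other cell types were sparse on both sides. No stromal gene was measured, and the median summed level per cell was 0 CPM on both sides for the stromal, endothelial, immune and melanocyte lists. Glial markers had a median sum of 0.922 CPM in positive and 66.3 CPM in negative cells, neuron markers 67.9 and 9.02 CPM, and dark cell markers 38.3 and 146.6 CPM. ELAVL4 was the only called gene on these lists.

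**Figure D5:**
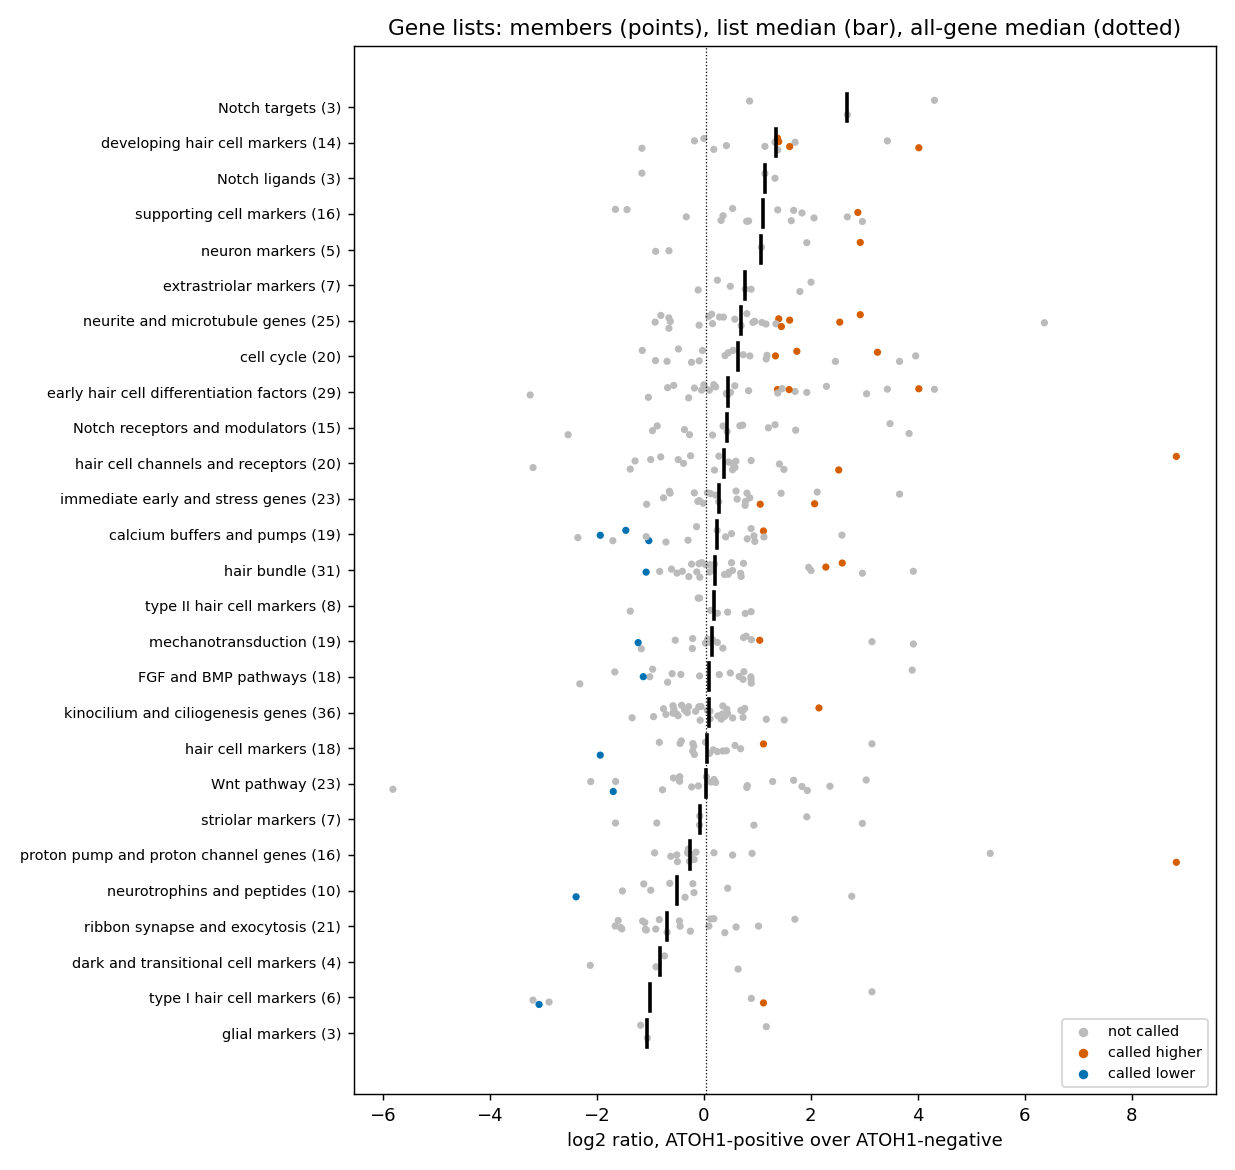
Log2 ratios of ATOH1-positive over ATOH1-negative cells for the measured members of each gene list with at least 3 of them (number in brackets), with a black bar at the list median and a dotted line at the median of all genes, 0.04. Medians were highest for Notch targets (2.68), developing hair cell markers (1.36) and Notch ligands (1.14). Next came supporting cell markers (1.11) and neuron markers (1.08, but -1.10 with no bound on OCM). Both Notch lists rest on 3 measured genes, with plate medians of -0.35 to 5.07 for targets and -2.04 to 5.52 for ligands. With the difference of mean log2 values the median was 0.71 for Notch targets and 0.69 for developing hair cell markers. Medians were lowest for glial (-1.05), type I (-0.999, but 0.19 with OCM under 5000 CPM) and dark cell markers (-0.81) and ribbon synapse genes (-0.68). Glial markers rest on 3 measured genes, with plate medians of -3.75 to 0.65, and dark cell markers on 4, with -2.94 to 1.77. Plate medians also had both signs for neuron (-0.28 to 4.11), supporting cell (-0.36 to 2.28) and type I markers (-1.85 to 0.34) and ribbon synapse genes (-0.80 to 0.49). Most members of each list were not called.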

How the data were processed

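Single cells of the chicken utricle sensory epithelium were sorted into plates and sequenced from full-length cDNA, per the labels' protocols. The deposited files hold expected counts per gene, estimates made by the authors that need not be whole. The submitters' processing notes name STAR, RSEM and FastQC without saying what each did. For their versions, the genome build and the annotation, the sources used here give nothing. Without molecular identifiers, counts are of reads and not of molecules. The files of the 300 cells were used, and a table of the whole series was not used here. Symbols on more than 1 row (12) were summed, which left 13631, and counts were scaled to CPM by each cell's total. Cell filters, classes and the rule for called genes are those given above. For each side, cells of 1 plate were averaged first and the plate means next, where a plate held 3 or more cells from each side, and 1 CPM was added before log2 ratios. No doublet caller was run on these singly sorted cells, and no p-value was computed, since no animal is named for a cell.

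The text names the 15 highest and 15 lowest ratios among the called genes, HES6, NHLH1 and HVCN1, called members of 31 gene lists, up to 4 of the most abundant members of a list, and the 8 genes most like ATOH1. POU4F3, JAG2, DLL1, HES5, the SOX genes and other uncalled genes given for their role were chosen outside this rule, after their values were seen. The members and the lists were chosen with earlier results of these data known. Binomial intervals are exact and cover counting error only. The scripts were tested on simulated data. Alternatives covered the scale, depth, low values, fold, plates, the bounds on ATOH1, OCM, genes and the hair cell rule, and single cells. One with HINTW at 10 CPM or more only was chosen after seeing the data. Python 3.11.15, numpy 2.4.6, pandas 2.3.3, scipy 1.17.1 and matplotlib 3.10.9 were used.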

Additional observations from a re-analysis of the deposited data

Results flagged for a closer look

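The median log2 ratio of the 20 measured hair cell channels and receptors was 1.95 on plate 6 and between -0.34 and -0.03 on the other 4 plates, so plate 6 stood apart from the rest. Plate 6 has 3 ATOH1-negative cells. Among 35 sets of 5 plate values looked at in this way it was the only one that stood apart. Chance gives about 1 in 20, or about 1.8 of the 35 sets, so 1 such set is no more than chance gives.

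Cells left out by the filter on total counts and genes also held ATOH1. Of 35 such cells on the hair cell side of the rule with OCM under 10000 CPM, 5 had ATOH1 at 10 CPM or more, which is 14.3% (exact binomial 95% interval 4.81 to 30.3%), and their median was 1731 genes. These cells are in no comparison above.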

How the results depend on the processing

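Of all genes measured, 2.28% were called higher and 1.32% lower (314 genes). Calls in both directions numbered 516 (3.65 and 2.26%) with the difference of mean log2(CPM + 1), 528 (3.14% higher) with no filter on low values, and 691 (4.20 and 3.71%) with all cells averaged without plates. They were 0.985 and 0.332% with a log2 ratio of at least 2. With ATOH1 at 50 CPM or more, 3.46% were lower and 18.5% of low-OCM hair cells were positive, against 45.7%. Lower calls were 2.46% on plates holding 5 or more cells from each side, 0.827% with any ATOH1 count and 2.09% with no OCM bound, where 11 of 27 list medians lay above that of all genes, against 20. With cells at 10 CPM or more of HINTW only, 772 genes were called (4.93 and 4.47%). With 1 plate left out, 3.34 to 3.83% were higher and 1.96 to 2.65% lower. In those settings fewer plates had to go the same way, and fewer genes were measured. The cause of these shifts was not tested. In every setting but the higher fold and the average without plates, 36 of the genes called higher and 8 of those called lower were called. Settings named above for a lost call need not be all of those in which it was lost.

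Of 1140 values of the 60 named genes under alternatives 0 changed sign. Much of this was fixed by the choice of genes. All named genes but HES6 were called, so each went the same way on every plate, and HES6 was opposite on no plate. Leaving out plates, or adding a larger value before the log2 ratio, therefore could not change a sign. Only the other alternatives could have done so. Of the 1140 values, 82 moved by more than the SD over plates, 45 to a smaller size. List medians changed sign in 57 of 567 values, 51 of them in lists whose median was within 0.3 of 0. No analysis paired by animal was possible because the labels tie no cell to an animal, and no test was made. Each plate holds both sides, and the direction of each gene was compared within plates. Its log2 ratio, however, was taken between the averages of the plate means and not within plates. At a median of 471624 counts per cell, a gene at 0 counts in a cell may be present below detection.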
